A study of Homo sapiens with 6 samples.

Results

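The subject here is the mRNA of 10 genes that encode subunits of the CCR4-NOT and PAN2-PAN3 deadenylase complexes in Mono-mac-6 cells with DDX6 targeted. They were chosen by name: CNOT6L, CNOT6, CNOT7, CNOT8, CNOT2, CNOT10, CNOT11, CNOT4, PAN2 and PAN3. All 10 were found among the 18806 gene symbols of the expression table, and all 10 passed the filter on low values. The scaffold subunit of CCR4-NOT was outside the set.

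Mono-mac-6 is an established human cell line from acute myeloid leukemia of monocytic type, and the labels record an MLL-AF9 fusion in it. Every group came from a single Cas9-expressing clone that received a guide by lentivirus, so the results describe that clone. The groups were sgDDX6.1 and sgDDX6.2, a pair of guides against DDX6, and sgNS, the control guide, with 2 libraries of poly(A)+ RNA each. Transduced cells of all groups were selected for 1 to 2 weeks in hygromycin B at 200 µg per ml together with blasticidin at 10 µg per ml. Harvest is labelled as day 8 of infection, earlier than the end of a selection of 2 weeks, so the day is uncertain. Whether replicate libraries are separate cultures is not stated, so p-values measure the spread between libraries, which may be technical.

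Deadenylation, the shortening of the poly(A) tail, is usually the first step of mRNA decay. PAN2-PAN3 is known for trimming long tails and CCR4-NOT for removing the rest. CCR4-NOT carries a pair of nuclease activities, one from CNOT6 or its paralog CNOT6L and one from CNOT7 or its paralog CNOT8. DDX6 is an RNA helicase found in processing bodies that binds the CCR4-NOT scaffold and links deadenylation to translational repression and decapping. CCR4-NOT is brought to its targets by microRNA silencing complexes and by RNA-binding proteins.

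The values were TPM (a transcript's share of its library, corrected for transcript length), which allow levels of different genes to be compared. TPM holds no read depth, so no counting error can be given. Between 10794 and 11007 symbols reached 1 TPM in a library. Replicate libraries correlated at 0.998 (Pearson's r over genes, which are not independent of one another). DDX6 itself had 54.4 and 52.0 TPM with sgDDX6.1 and 52.3 and 53.5 TPM with sgDDX6.2, against 102.1 and 99.5 TPM with sgNS, so the libraries parted as labelled. Of 10 monocytic markers, 8 reached 1 TPM in every library, among them LYZ, SPI1 and CEBPA, while CD14 lay between 0.37 and 1.36 TPM. CSF1R had 0.71 and 0.98 TPM with sgNS and 1.79 to 4.5 TPM in sgDDX6 libraries. The sum of the 10 monocytic markers was 15979 to 17354 TPM in sgDDX6 libraries and 11610 to 12027 TPM in sgNS libraries, most of it LYZ. Over both guides, 6 of them were called higher and 3 lower, the latter being CD14, FCGR1A and ITGAM. Of 12 markers of other cell types, 10 stayed under 1 TPM in every library. The sum of these 12 was 136.6 to 202.1 TPM in sgDDX6 libraries and 66.7 to 68.9 TPM in sgNS libraries, nearly all of it PECAM1, which monocytes also express. The part of these differences in the results was not tested.

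With DDX6 targeted, 5 of the 10 subunits fell and none passed the test in the other direction. PAN2 was about halved, and CNOT6L, CNOT10, PAN3 and CNOT4 fell by smaller amounts. CNOT6, CNOT7, CNOT8, CNOT2 and CNOT11 did not pass the test. The same 5 subunits fell with each guide alone. Over both guides, 66.7% of all genes tested passed the same test, 33.8% higher and 32.9% lower, so the 5 of 10 members called in either direction are no more than the background share. The test was limma on log2(TPM + 1) with Benjamini-Hochberg adjustment over 11151 genes and a threshold of 0.05. At an unadjusted p under 0.05, the count of members over both guides was 0 higher and 5 lower. The median log2 fold change of the 10 members was -0.16, and that of all genes tested was 0.00084.

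**Figure D1:**
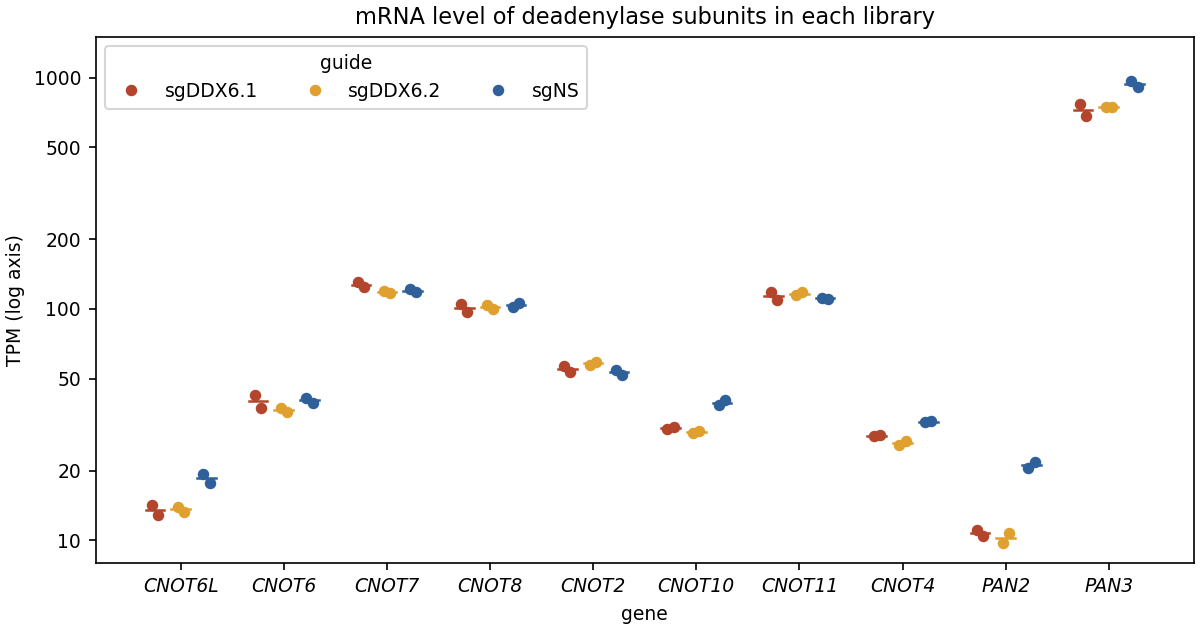
TPM of each subunit in the 6 libraries, on a log axis. Points are libraries and bars are means of 2 libraries, coloured by guide. All 4 sgDDX6 libraries lie below both sgNS libraries for CNOT6L, CNOT10, CNOT4, PAN2 and PAN3, and the groups overlap for the other 5 genes.

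In 5 of the 10 members, all 4 sgDDX6 libraries lay below both sgNS libraries, and in none did they lie above. Among all genes tested, 31.9% lay below in this way and 31.5% above. Summed over the 9 subunits other than PAN3, the level was 503.3 to 537.3 TPM in sgDDX6 libraries and 538.4 to 541.8 TPM in sgNS libraries. The sums did not overlap but lay close together, and the 3 most abundant of these 9 genes did not pass the test.

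PAN2, the catalytic nuclease of PAN2-PAN3, had the largest change among the members. It had 11.0 and 10.4 TPM with sgDDX6.1 and 9.70 and 10.7 TPM with sgDDX6.2, against 20.6 and 21.9 TPM with sgNS. The 4 sgDDX6 libraries were close to one another and the groups were far from overlapping. Over both guides the log2 fold change was -0.95 (SE 0.06, limma adjusted p = 1.52e-07), and 2.6% of all genes tested had a value as low or lower. With sgDDX6.1 it was -0.92 (adjusted p = 9.85e-07) and with sgDDX6.2 -0.99 (adjusted p = 4.42e-07). The guides differed by -0.07 (95% interval -0.23 to 0.10, adjusted p = 0.526).

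PAN2 lies on chromosome 12, 56316223 to 56334053, on the minus strand (GRCh38, GENCODE release 29). Its end overlaps the start of CNPY2, a gene for an ER-resident protein on the same strand, over 114 bases. CNPY2 had 139.6 and 153.1 TPM with sgDDX6.1 and 154.3 and 154.3 TPM with sgDDX6.2, against 202.7 and 205.9 TPM with sgNS, a log2 fold change of -0.44 over both guides. The part of reads from this overlap in the PAN2 values was not tested.

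PAN3, the pseudokinase partner that binds PAN2 and brings it to poly(A)-bound mRNA, fell less than PAN2. It had 771 and 683 TPM with sgDDX6.1 and 749 and 745 TPM with sgDDX6.2, against 964 and 908 TPM with sgNS. The sgDDX6.1 libraries were the farthest apart, and all sgDDX6 values were below both sgNS values. Over both guides the log2 fold change was -0.35 (SE 0.04, limma adjusted p = 3.28e-05), with -0.37 for sgDDX6.1 and -0.32 for sgDDX6.2.

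The PAN3 level was far above that of every other member and above 98.6% of all genes tested. PAN3 lies on chromosome 13, 28138506 to 28295335, on the plus strand. A processed pseudogene of the translation elongation factor EEF1A1, named EEF1A1P3 and 1385 bases long, lies inside the gene on the same strand and overlaps 0 annotated PAN3 exons in GENCODE release 29. Which annotation the authors counted against is not given in the sources used here. EEF1A1 had 9188 and 9174 TPM with sgDDX6.1 and 8355 and 8255 TPM with sgDDX6.2, against 13240 and 13033 TPM with sgNS, a log2 fold change of -0.59. As a share of the EEF1A1 level, PAN3 stood at 7.44% to 9.02% in sgDDX6 libraries and 6.97% to 7.28% in sgNS libraries. Whether reads of EEF1A1 copies add to the PAN3 level or to its change was not tested.

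Since PAN2 and PAN3 both fell, their sequences upstream of the start are set beside each other, with copies of the searched motifs in capitals. Each run is the 250 bases before a RefSeq start in GRCh38.p14, read 5′ to 3′ on the strand of the gene. PAN2 is at chr12:56334001-56334250 (minus strand) and PAN3 at chr13:28138295-28138544 (plus strand).

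PAN2: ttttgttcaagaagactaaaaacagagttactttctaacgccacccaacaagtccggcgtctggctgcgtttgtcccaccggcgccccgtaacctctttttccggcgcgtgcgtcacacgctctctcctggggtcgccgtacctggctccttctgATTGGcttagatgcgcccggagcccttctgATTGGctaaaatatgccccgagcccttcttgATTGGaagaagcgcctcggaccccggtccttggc

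PAN3: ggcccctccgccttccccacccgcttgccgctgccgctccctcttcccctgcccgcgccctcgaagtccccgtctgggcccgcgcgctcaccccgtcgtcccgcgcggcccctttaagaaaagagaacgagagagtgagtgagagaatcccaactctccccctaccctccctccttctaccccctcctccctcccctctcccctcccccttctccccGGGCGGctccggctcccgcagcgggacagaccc

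The PAN2 run held 3 copies of the CCAAT box (CCAAT, either strand), all read as ATTGG on the strand of the gene. They begin at positions -95, -65 and -34 from the start, about equally spaced. Over 35116 RefSeq starts, 32.01% of such runs held the CCAAT box at least once and 2.93% held 3 copies or more. The PAN3 run held 1 SP1 box (GGGCGG, either strand), which 42.64% of runs held. Neither run matched the ETS core (CCGGAAG), the NRF1 site (GCGCATGC), the ATF4 site (TGATGNAA), the TATA box (TATAAA) or the YY1 site (AAGATGGCG), each searched on both strands. These were present in 8.52%, 2.63%, 3.14%, 10.72% and 0.65% of all runs. A match describes letters and is no evidence of binding.

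CNOT6L and CNOT6 are the exonucleases related to yeast Ccr4, and CNOT6L passed the test while CNOT6 did not. CNOT6L had 14.2 and 12.9 TPM with sgDDX6.1 and 13.97 and 13.3 TPM with sgDDX6.2, against 19.4 and 17.7 TPM with sgNS. The groups did not overlap. Its log2 fold change was -0.42 over both guides (SE 0.06, limma adjusted p = 0.000116), -0.43 with sgDDX6.1 and -0.42 with sgDDX6.2. The transcript GC content of CNOT6L is 36.3%, lower than all but 2.66% of tested genes. With a trend on GC content removed from each library, an alternative chosen after seeing the data, the change of CNOT6L was -0.26 over both guides, -0.30 with sgDDX6.1 and -0.22 with sgDDX6.2, each still called lower. CNOT6 had 42.6 and 37.2 TPM with sgDDX6.1 and 37.3 and 35.8 TPM with sgDDX6.2, against 41.4 and 39.2 TPM with sgNS. One sgDDX6.1 library was the highest of the 6, so the groups overlapped, and the log2 fold change was -0.08 (95% interval -0.21 to 0.05, adjusted p = 0.252). Without that library, sgDDX6.1 replicate 1, CNOT6 was called lower over both guides (-0.13, adjusted p = 0.0445).

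**Figure D2:**
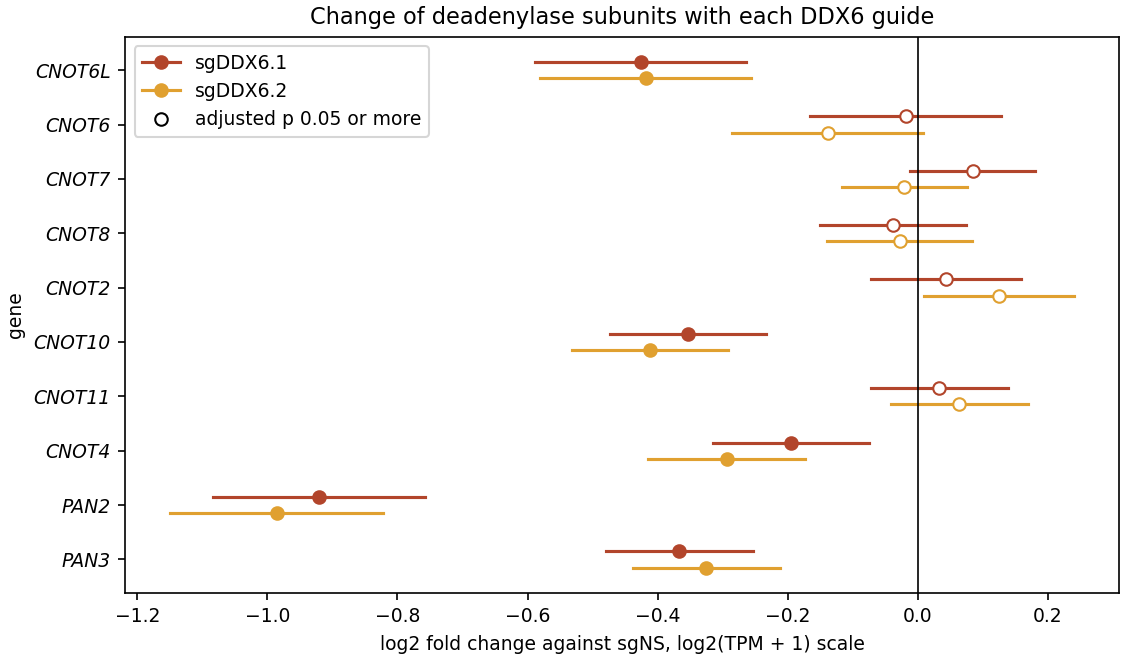
Log2 fold change of each subunit against sgNS on the log2(TPM + 1) scale, for each DDX6 guide. Lines are 95% intervals from limma, filled points passed an adjusted p of 0.05 and open points did not. CNOT6L, CNOT10, CNOT4, PAN2 and PAN3 are filled for both guides.

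CNOT7 and CNOT8, the nucleases related to yeast Caf1, stayed near the control level. CNOT7 had 130.4 and 124.1 TPM with sgDDX6.1 and 119.4 and 117.0 TPM with sgDDX6.2, against 121.7 and 118.2 TPM with sgNS. The sgDDX6.1 libraries were the highest and the sgDDX6.2 libraries fell on both sides of an sgNS library. The log2 fold change over both guides was 0.03 (95% interval -0.05 to 0.12, limma adjusted p = 0.473). CNOT7 has the lowest transcript GC content of the members, 35.7%, lower than all but 1.87% of tested genes. With the trend on GC content removed, CNOT7 was called higher over both guides (0.20, adjusted p = 5.14e-05). CNOT8 had 105.1 and 96.7 TPM with sgDDX6.1 and 103.7 and 99.5 TPM with sgDDX6.2, against 101.5 and 105.6 TPM with sgNS. These values were interleaved, with a log2 fold change of -0.03 (95% interval -0.13 to 0.06, adjusted p = 0.531).

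Of the CCR4-NOT members that are not nucleases, CNOT10 and CNOT4 passed the test. CNOT10, which binds CNOT11 in a module at one end of the scaffold, had 30.4 and 30.8 TPM with sgDDX6.1 and 29.02 and 29.6 TPM with sgDDX6.2, against 38.3 and 40.3 TPM with sgNS. The 4 sgDDX6 libraries spanned less than the gap to sgNS. Its log2 fold change was -0.38 over both guides (SE 0.05, limma adjusted p = 2.26e-05), -0.35 with sgDDX6.1 and -0.41 with sgDDX6.2. CNOT11 had 118.8 and 109.3 TPM with sgDDX6.1 and 114.8 and 118.1 TPM with sgDDX6.2, against 111.8 and 110.9 TPM with sgNS. The groups of CNOT11 overlapped, with a log2 fold change of 0.05 (95% interval -0.04 to 0.14, adjusted p = 0.323), so the 95% intervals of these module partners did not overlap. Between the change of CNOT10 and that of CNOT11 no direct test was made.

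CNOT2, which with its partners forms the module at the other end of the scaffold, had 56.6 and 53.4 TPM with sgDDX6.1 and 57.3 and 59.0 TPM with sgDDX6.2, against 54.7 and 51.8 TPM with sgNS. Both sgDDX6.2 libraries and sgDDX6.1 replicate 1 lay above both sgNS libraries, and sgDDX6.1 replicate 2 lay between them. The log2 fold change was 0.04 with sgDDX6.1 (limma adjusted p = 0.484) and 0.12 with sgDDX6.2 (95% interval 0.01 to 0.24, unadjusted p = 0.0368, adjusted p = 0.0564). CNOT2 with sgDDX6.2 was therefore at the edge of the threshold, and it was called higher under 8 of 17 alternatives, 3 of them with sgDDX6.1 replicate 1, sgDDX6.1 replicate 2 or sgNS replicate 1 left out (adjusted p = 0.0434, 0.043 and 0.0466). Over both guides it was 0.08 (adjusted p = 0.123).

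CNOT4, a RING-type E3 ubiquitin ligase that is a stable subunit in yeast and a looser partner in human cells, had 28.3 and 28.5 TPM with sgDDX6.1 and 25.9 and 27.0 TPM with sgDDX6.2, against 32.6 and 32.7 TPM with sgNS. It had the smallest change of the 5 that fell, and its groups did not overlap. The log2 fold change was -0.24 over both guides (SE 0.05, limma adjusted p = 0.000746), -0.19 with sgDDX6.1 (adjusted p = 0.00898) and -0.29 with sgDDX6.2 (adjusted p = 0.000614). CNOT4 and CNOT6L each have 1 annotated pseudogene named after them and CNOT7 has 2. Reads shared with these would make the levels less certain, but sharing of reads was not tested. A processed pseudogene on the same strand, SUGT1P2 (992 bases), lies inside CNOT10. Processed pseudogenes on the opposite strand lie inside CNOT4 (SDHDP2, 465 bases) and CNOT6 (AC122714.1, 459 bases). The part of reads from these pseudogenes was not tested. Genes on the opposite strand overlap CNOT7 (VPS37A, 308 bases), CNOT8 (FAXDC2, 1700 bases) and CNOT11 (TBC1D8, 65 bases). So do LINC01481 (367 bases) and AC092881.1 (2733 bases) for CNOT2 and CNOT10-AS1 (6820 bases) for CNOT10. Over both guides the log2 fold change was -0.82 for VPS37A, -0.31 for FAXDC2 and -0.41 for TBC1D8, each called lower by limma. FAXDC2 was near the floor, at 0.42 to 1.13 TPM, and was not called with sgDDX6.1 (-0.10, limma adjusted p = 0.46). Whether strand was used in counting is not stated, so reads of the pairs on opposite strands cannot be told apart.

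The upstream runs of CNOT6L and CNOT4 are shown as those of the nuclease and the ligase that fell, by the same rule as for PAN2. CNOT6L is at chr4:77819369-77819618 and CNOT4 at chr7:135510103-135510352, both on the minus strand. For CNOT10 the RefSeq start in the table lies 10396 bases from the GENCODE start, so its run is not shown.

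CNOT6L: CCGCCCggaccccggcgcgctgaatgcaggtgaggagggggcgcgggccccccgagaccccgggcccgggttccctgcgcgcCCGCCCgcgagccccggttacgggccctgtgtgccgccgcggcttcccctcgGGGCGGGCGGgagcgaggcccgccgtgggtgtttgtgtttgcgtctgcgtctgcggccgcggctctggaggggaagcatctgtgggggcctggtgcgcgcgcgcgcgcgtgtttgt

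CNOT4: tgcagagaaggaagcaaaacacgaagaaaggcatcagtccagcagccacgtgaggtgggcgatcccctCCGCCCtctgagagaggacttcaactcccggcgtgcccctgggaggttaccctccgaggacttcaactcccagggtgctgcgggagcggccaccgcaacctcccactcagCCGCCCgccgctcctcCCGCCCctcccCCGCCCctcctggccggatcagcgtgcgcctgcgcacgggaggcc

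Each of these runs held 4 copies of the SP1 box, capitalised and read as GGGCGG or CCGCCC, of which 2 in CNOT6L overlap each other. At least 3 copies occurred in 13.88% of all runs. The GC content was 78.0% for CNOT6L and 68.8% for CNOT4, against 57.2% for PAN2, 71.2% for PAN3 and a median of 58.0% over all starts. Neither held the CCAAT box seen 3 times in PAN2. The SP1 box occurred in the runs of PAN3, CNOT6L and CNOT4 and not in that of PAN2. It also occurred in runs of members that did not pass the test. There it had 3 copies in CNOT6, 2 in CNOT11, 1 in CNOT2 and 0 in CNOT8. The CCAAT box occurred 1 time each in CNOT6 and CNOT11 and 0 times in CNOT2 and CNOT8. For CNOT7 no RefSeq start was matched. The CNOT6L run belongs to 1 of 3 RefSeq starts, the nearest to the GENCODE start, at a distance of 247 bases. By the same rule, the CNOT8 run belongs to 1 of 3 starts, at a distance of 696 bases. PAN2 had 2 starts and CNOT2 had 3, with the nearest at 53 and 24 bases. Other starts of these genes may hold other counts.

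The order of the subunits by level differed between the groups in 1 place. In sgDDX6 libraries the order was PAN3, CNOT7, CNOT11, CNOT8, CNOT2, CNOT6, CNOT10, CNOT4, CNOT6L and PAN2. In sgNS libraries it was the same down to CNOT4, followed by PAN2 and then CNOT6L. PAN2 averaged 10.5 ± 0.575 TPM and CNOT6L 13.6 ± 0.584 TPM in sgDDX6 libraries (SD, n = 4), against 21.2 ± 0.912 and 18.6 ± 1.15 TPM in sgNS libraries (SD, n = 2). The library ranges of PAN2 and CNOT6L did not overlap in either group. Among neighbours in the order, only CNOT7 and CNOT11 overlapped in sgDDX6 libraries, and only CNOT6 and CNOT10 in sgNS libraries.

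Ratios of members within a library do not depend on its scaling. The ratio of CNOT6L to CNOT6 was 0.333 and 0.348 with sgDDX6.1 and 0.374 and 0.371 with sgDDX6.2, against 0.468 and 0.452 with sgNS. CNOT6L thus held 24.99% to 27.2% of the summed TPM of this pair in sgDDX6 libraries and 31.1% to 31.9% in sgNS libraries. The log2 ratio differed by -0.37 between the groups, with no overlap of libraries. The ratio of CNOT7 to CNOT8 was 1.24 and 1.28 with sgDDX6.1 and 1.15 and 1.18 with sgDDX6.2, against 1.199 and 1.12 with sgNS, and these overlapped (difference 0.07 on the log2 scale).

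The ratio of PAN3 to PAN2 was 69.9 and 65.5 with sgDDX6.1 and 77.2 and 69.3 with sgDDX6.2, against 46.9 and 41.6 with sgNS, and carries the uncertainty of the PAN3 level. Its log2 value was higher by 0.67 in sgDDX6 libraries, again with no overlap. Two-sided exact permutation tests over the 15 ways to split the libraries gave p = 0.0667 for CNOT6L over CNOT6 and for PAN3 over PAN2, which is the smallest they can give. For CNOT7 over CNOT8 the exact permutation p was 0.333, but with the GC trend removed its log2 difference was 0.19, with p at the smallest value. A value under 0.05 cannot be reached with 4 libraries against 2.

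**Figure D3:**
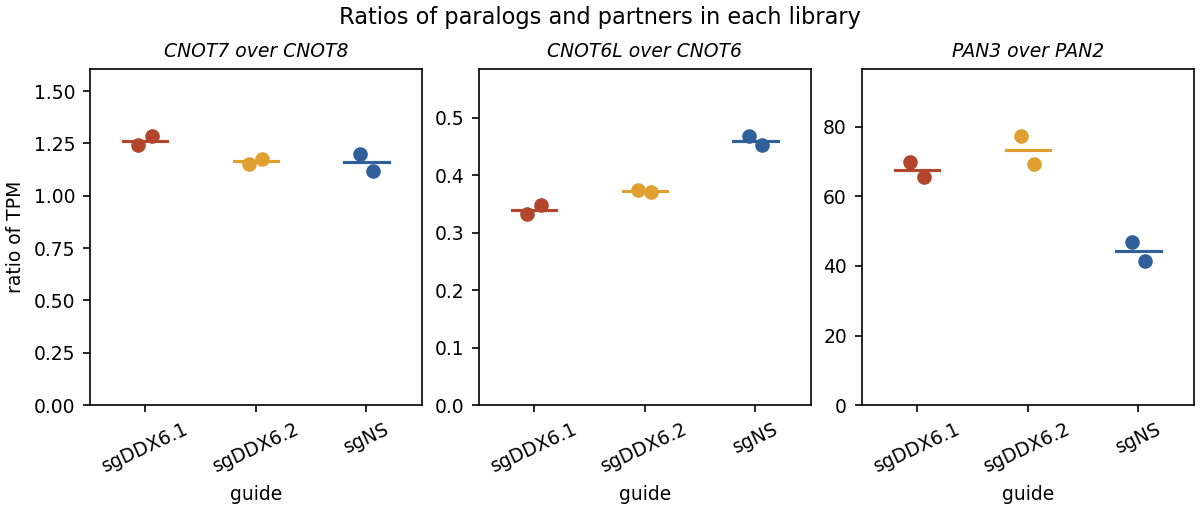
Ratio of TPM of CNOT7 to CNOT8, CNOT6L to CNOT6 and PAN3 to PAN2 in each library. Points are libraries and bars are means of 2 libraries per guide. The sgDDX6 libraries lie below sgNS for CNOT6L over CNOT6 and above it for PAN3 over PAN2.

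The guides were also compared directly. With sgDDX6.1, 5 members were lower than with sgNS and 0 higher, beside 61.6% of all genes called, 31.8% higher and 29.7% lower. With sgDDX6.2, 5 were lower and 0 higher, beside 64.2% called, 31.5% higher and 32.7% lower. Both comparisons use the same sgNS libraries. At an unadjusted p under 0.05, sgDDX6.1 had 5 lower and 0 higher, and sgDDX6.2 had 5 lower and 1 higher, CNOT2. Between sgDDX6.2 and sgDDX6.1, limma called 0 of 10 members, beside 35.6% of all genes, 17.0% higher and 18.6% lower. At an unadjusted p under 0.05, CNOT7 was lower with sgDDX6.2 than with sgDDX6.1 (-0.11, 95% interval -0.20 to -0.01, unadjusted p = 0.0344, adjusted p = 0.0828). The 3971 genes called between the guides became 2579 without sgDDX6.1 replicate 1, and 2252 or 2316 without replicate 1 or 2 of sgDDX6.2. Without sgDDX6.1 replicate 2, CNOT6 (-0.22, limma adjusted p = 0.0348) and CNOT7 (-0.14, adjusted p = 0.0491) were called lower with sgDDX6.2 than with sgDDX6.1. A missed threshold does not show that the guides acted alike on these genes.

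Of 6 lists of other genes that act on the poly(A) tail, 4 held both genes that rose and genes that fell over both guides. The counts of these lists stand beside 33.8% of all genes called higher and 32.9% called lower over both guides. These shares were 31.8% and 29.7% with sgDDX6.1, and 31.5% and 32.7% with sgDDX6.2. CNOT9, a further CCR4-NOT subunit that binds silencing factors, had 92.1 and 92.5 TPM with sgDDX6.1 and 86.3 and 86.2 TPM with sgDDX6.2, against 86.9 and 89.1 TPM with sgNS. It did not pass the test (0.02, limma adjusted p = 0.66). TNKS1BP1, a protein found with CCR4-NOT, fell by 0.60 on the log2 scale over both guides (adjusted p = 7.03e-06). CNOT3, also planned for the list of other CCR4-NOT subunits, was not found in the expression table, so 2 of the 3 genes were tested. Among 6 tested deadenylases outside the complexes, 2 fell and 0 rose over both guides, with a median of -0.11. With sgDDX6.1, 2 fell and 1 rose (median -0.02), and with sgDDX6.2, 4 fell and 0 rose (median -0.20). ANGEL2, a relative of CNOT6 for which a cyclic phosphatase activity has been described, fell by 0.57. PARN, which trims the tail of telomerase RNA, fell by 0.19. ANGEL1 (-0.12, adjusted p = 0.117) and TOE1 (-0.10, adjusted p = 0.139), a nuclease of small nuclear RNA ends, did not pass over both guides. TOE1 was called lower with sgDDX6.2 (-0.25, limma adjusted p = 0.00668) and not called with sgDDX6.1 (0.04, adjusted p = 0.59).

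The BTG and TOB proteins, which bind CNOT7 and CNOT8 and stimulate deadenylation, changed in both directions. The 5 tested had a median of -0.03, with 2 higher and 2 lower. BTG1 had 34.5 and 32.2 TPM with sgDDX6.1 and 39.3 and 36.8 TPM with sgDDX6.2, against 78.2 and 74.1 TPM with sgNS (log2 fold change -1.08, limma adjusted p = 6.05e-09). Over both guides this change was larger in size than that of PAN2 (-0.95), with overlapping 95% intervals, while with sgDDX6.2 both stood near -0.98 and -0.99. The difference between BTG1 and PAN2 was not tested. BTG3 fell by 0.70, while TOB1 rose by 0.20. BTG2 had 55.8 and 55.0 TPM with sgDDX6.1 and 87.6 and 93.0 TPM with sgDDX6.2, against 46.9 and 47.6 TPM with sgNS. BTG2 rose by 0.57 over both guides (adjusted p = 3.18e-07) and was higher with sgDDX6.2 than with sgDDX6.1 by 0.70 (adjusted p = 3.37e-06).

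Of 10 tested poly(A)-binding proteins and their partners, 7 fell and 1 rose over both guides, with a median of -0.14. With sgDDX6.1, 4 fell and 1 rose (median -0.08), and with sgDDX6.2, 7 fell and 1 rose (median -0.27). PABPC1, the main cytoplasmic poly(A)-binding protein, had 1728 and 1612 TPM with sgDDX6.1 and 1464 and 1477 TPM with sgDDX6.2, against 2491 and 2454 TPM with sgNS. It fell by 0.66 (limma adjusted p = 8e-09). The nuclear poly(A)-binding protein PABPN1 fell by 0.28 and LARP1, which binds mRNAs of the translation machinery, by 0.28. LARP1 was not called with sgDDX6.1 (-0.09, limma adjusted p = 0.0687) and was called lower with sgDDX6.2 (-0.46, adjusted p = 1.79e-06). LARP4, which protects poly(A) tails, rose by 0.32 (adjusted p = 0.00091).

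The 17 tested RNA-binding proteins that can bring CCR4-NOT to mRNA had a median of -0.04, with 4 higher and 7 lower. Members of the ZFP36 family, which bind AU-rich elements, parted. ZFP36L1 had 8.93 and 8.51 TPM with sgDDX6.1 and 9.41 and 10.8 TPM with sgDDX6.2, against 18.3 and 16.6 TPM with sgNS, and fell by 0.83 (limma adjusted p = 1.2e-06). ZFP36L2 rose by 0.44 (adjusted p = 1.69e-06) and ZFP36 by 0.33 (adjusted p = 9.95e-06). RC3H2, a Roquin protein that binds stem-loops, fell by 0.42.

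Of 10 tested poly(A) polymerases and terminal nucleotidyl transferases, which lengthen or modify tails, 5 were lower and 2 higher (median -0.05). The cytoplasmic poly(A) polymerase PAPD4, also called TENT2, fell by 0.39, and TUT1, which adds uridines to U6 RNA, fell by 0.33. PAPOLA, the main nuclear poly(A) polymerase, rose by 0.19, and FAM46A, also called TENT5A, by 0.25 (limma adjusted p = 0.000257). The lists were described by counts and medians without a test of the list.

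**Figure D4:**
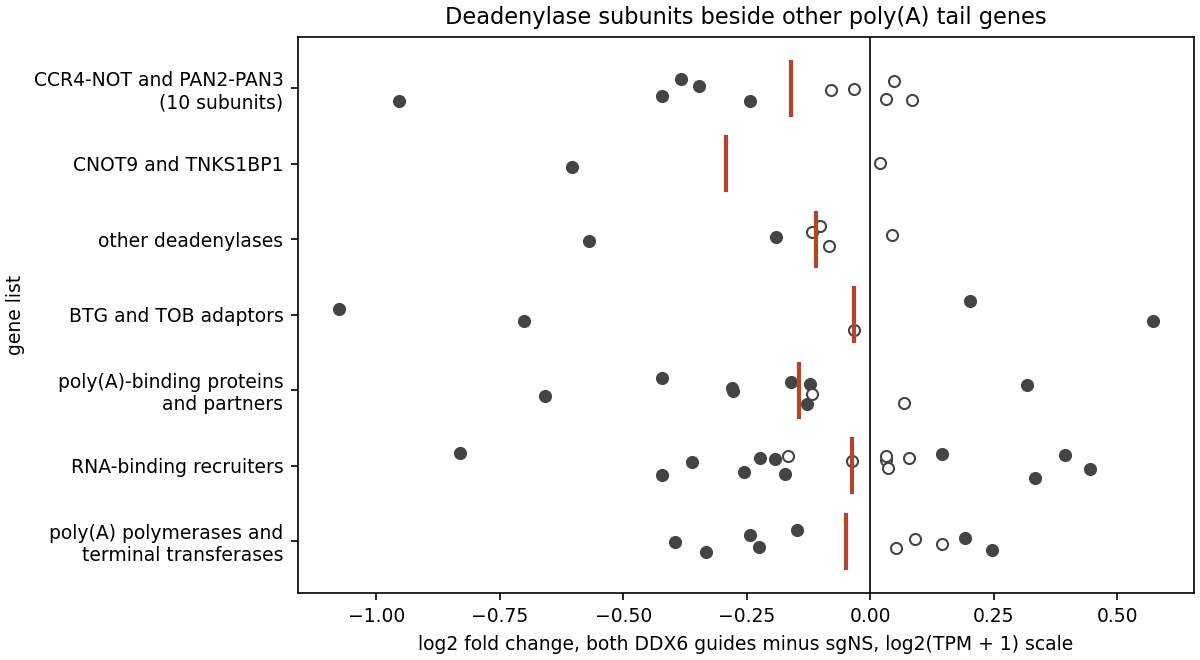
Log2 fold change over both DDX6 guides against sgNS, on the log2(TPM + 1) scale, of the 10 subunits and of 6 lists of other poly(A) tail genes. Points are genes, filled where the limma adjusted p was under 0.05, and red bars are list medians. PAN2 is the leftmost of the 10 subunits, and BTG1 lies farther left in its list.

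The genes whose pattern over the 6 libraries was most like that of PAN2 were NFE4, IER5 and ANKZF1, out of 8150 tested genes with a mean of at least 10 TPM. Likeness was the root mean square distance of log2(TPM + 1) after each gene's own mean was taken off. It was 0.041 for NFE4, 0.042 for IER5 and 0.047 for ANKZF1. NFE4 had 21.2 and 20.6 TPM with sgDDX6.1 and 19.8 and 20.4 TPM with sgDDX6.2, against 41.7 and 41.8 TPM with sgNS. Among the other members the closest to PAN2 was CNOT6L, which ranked 685 at a distance of 0.27. CNOT10 ranked 751, PAN3 1002 and CNOT4 1520.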

How the data were processed

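Poly(A)+ RNA was sequenced in 6 libraries of 3 groups. The authors deposited TPM per gene symbol, made with RSEM 1.2.31 on GRCh38 per the submitters' processing notes; no source used here names the aligner or annotation. Every library summed to 1000000, so a change of abundant genes shifts all others. Where a read fits more than one gene, RSEM assigns it by model, which leaves genes with pseudogene copies uncertain.

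From the TPM, log2(TPM + 1) was computed, and 11151 genes with at least 1 TPM in 2 or more libraries were kept. With limma 3.58.1 (R 4.3.3), the means of the 3 groups were modelled over all libraries together, with a mean-variance trend and residual df of 3; tests were two-sided and p-values were adjusted by Benjamini-Hochberg per contrast. Fold changes on this scale understate those of low genes. The procedure was tested on simulated data. Positions and transcript GC content came from GENCODE release 29, and upstream sequences from RefSeq (GRCh38.p14), where 9 of 10 members matched.

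The members and lists were chosen with earlier results of these data known. Named genes were all 10 members, DDX6, up to 4 genes per list with the lowest adjusted p, and the 3 genes most like the member with the largest change. CNPY2, EEF1A1, VPS37A, FAXDC2 and TBC1D8 were added after their values were seen, as neighbours or relatives of a member. Alternatives were other pseudocounts (0.1 and 5), filters, scalings and limma settings, a replicate block, libraries left out and, added later, removal of a GC trend.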

Additional observations from a re-analysis of the deposited data

Results flagged for a closer look

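The test between the guides called 0 of 10 members. Among the other poly(A) tail genes named, the effect of sgDDX6.2 differed from that of sgDDX6.1 in 9, by a limma adjusted p under 0.05 for the difference on the log2 scale. BTG2 was higher with sgDDX6.2 by 0.70 and BTG1 by 0.19. The other 7 were lower with sgDDX6.2: LARP1 (-0.37), TNKS1BP1 (-0.32), TOE1 (-0.29), TUT1 (-0.26), LARP4 (-0.24), PABPN1 (-0.19) and PABPC1 (-0.18). Of all genes tested, 35.6% were called in this comparison. The 9 are limited to named genes, so called list genes such as CPEB1, TOB2 and PABPC4 are not among them. Over the full lists, 0 higher and 3 lower of 6 other deadenylases were called. The BTG and TOB adaptors had 2 higher and 1 lower of 5, and the poly(A)-binding list 0 higher and 6 lower of 10. The recruiters had 1 higher and 0 lower of 17, and the polymerases and transferases 0 higher and 2 lower of 10. Groups of 2 libraries are too small for a search of outlying libraries.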

How the results depend on the processing

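CNOT6L, CNOT10, CNOT4, PAN2 and PAN3 stayed lower and past the threshold under all alternatives run, for both guides together and for each guide, with adjusted p up to 0.0379. For sgDDX6.2 against sgNS, 1 member (CNOT2) was called higher, in place of 0, under quantile normalization, median centring and with only the groups compared. With the GC trend removed, 2 members (CNOT2 and CNOT7) were higher over both guides, 1 (CNOT7) with sgDDX6.1 and 2 (CNOT2 and CNOT7) with sgDDX6.2, where CNOT7 changed sign to 0.186. Leaving out libraries in turn gave 0 to 1 members higher with sgDDX6.2 against sgNS, 0 to 2 lower between the guides, and 2252 to 4121 genes called between the guides. CNOT6 was also called lower over both guides without sgDDX6.1 replicate 1, and with sgDDX6.2 against sgNS with either sgDDX6.1 library left out or only the groups compared. A lone library left in a group was assumed to vary like the others. The causes were not tested.

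The replicate numbers do not pair the libraries by any label, and deviations of same-numbered libraries correlated at 0.04, 0.26 and 0.10. With the replicate block, 1 member (CNOT2) was higher with sgDDX6.2 against sgNS, CNOT6 was also lower there, and 1 (CNOT7) was lower between the guides; the genes called over both guides were 7859, against 7434. Differences in the ratios kept their sign under the alternatives run for them, pseudocounts, scalings, libraries left out and the GC trend removed, from -0.39 to -0.27 for CNOT6L over CNOT6, 0.02 to 0.19 for CNOT7 over CNOT8 (highest with the GC trend removed) and 0.42 to 0.76 for PAN3 over PAN2. For both guides together, a fit with only the groups compared is the reported fit. Depth is unknown in TPM.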
